A study of Oryza sativa with 5 samples.

Results

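The peptide and nitrate transporter transcripts of rice roots were followed across 5 libraries. Members were taken from the function text of the deposited tables, which had to contain peptide transporter, PTR2, proton-dependent oligopeptide or nitrate transporter. The high affinity uptake loci Os02g0112100, Os02g0112600, Os01g0704100 and Os02g0595900 were set aside. The rule gave 57 of the 38355 transcripts present in all 3 tables, from 50 loci on 11 chromosomes. Of these loci, 45 had 1 member transcript and 5 had several, up to 4, whose reads may be shared between isoforms.

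Peptide transporters of the PTR family move dipeptides, tripeptides and other small solutes into cells together with protons. The same family holds the low affinity nitrate transporters, which were first known in Arabidopsis as NRT1, and sequence alone does not tell which substrate a member carries. OPT transporters form a separate family that carries longer peptides, glutathione and metal chelates. In roots, some members of these families take up nitrogen from the soil and load it into the vascular tissue.

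By function text, the members held 8 nitrate transporters, 28 PTR peptide transporters, 14 OPT transporters and 7 described only by an oligopeptide transporter domain. These groups follow the wording alone and can split a locus. The isoform Os01t0872500-01 fell in the domain group and Os01t0872500-02 in the PTR group. The name low affinity therefore did not cover every member. Os01t0547600-00 is described as similar to the Arabidopsis high affinity transporter NRT2.7, and only Os03t0235900-01 is described as low affinity, similar to NRT1.2.

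Roots of rice seedlings were harvested at an age of 2 weeks, with 1 library per group. The cultivar Nipponbare gave a nontransgenic library, NT (Nipponbare), and the RCc3::OsNAC6- and GOS2::OsNAC6-labelled libraries, in which the NAC transcription factor gene OsNAC6 is driven by a promoter active in roots or by one active in the whole plant. The cultivar Hwayoung gave NT (Hwayoung) and the nac6-labelled library, described as a knockout of OsNAC6. Which transgenic line was sequenced and how many plants were pooled were not given in the sources used here, and all plants grew under normal conditions.

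The libraries held between 22909538 and 26838552 recovered reads. OsNAC6 (Os01t0884300-01) had 6215 reads in NT (Nipponbare), 6050 and 6675 in the RCc3::OsNAC6- and GOS2::OsNAC6-labelled libraries, 7600 in NT (Hwayoung) and 8215 in the nac6-labelled one. As log2 ratios to NT (Nipponbare), the RCc3::OsNAC6-labelled library lay at -0.02 ± 0.03 and the GOS2::OsNAC6-labelled one at 0.37 ± 0.03. The nac6-labelled library lay at 0.31 ± 0.03 to NT (Hwayoung). The targeted gene thus followed its label only in the GOS2::OsNAC6-labelled library, by less than 2-fold. On RNA gel blots of older plants, the paper reports high OsNAC6 levels in roots of both overexpressor types. Every direction given here is one between libraries as labelled. The root genes Lsi1 and Lsi2, silicon transporters, had at least 7636 and 17297 reads in every library. A further root gene, RCc3, varied more between libraries. Its count was 17109 for NT (Nipponbare) but 4856 for NT (Hwayoung) and 4166 for nac6. RCc3::OsNAC6 gave 24905 and GOS2::OsNAC6 gave 27505, log2 ratios to their control of 0.56 ± 0.02 and 0.95 ± 0.02. For nac6 the ratio was -0.03 ± 0.04. The 55 transcripts of a shoot marker list (photosystem, chlorophyll a/b and the small Rubisco subunit) summed to between 37.3 RPM (reads scaled to the library total) in the RCc3::OsNAC6-labelled library and 59.4 in the nac6-labelled one, with 4 to 6 of them at 0 reads in each library. In whole roots, fewer cells of a type and less RNA per cell cannot be told apart.

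Each comparison used log2((case + 1)/(control + 1)) of the normalized counts within a table, and transcripts whose pair averaged under 10 were left out. Calls of higher or lower required a difference of at least 2-fold. Errors are standard errors of counting only and intervals are 95% counting intervals, since no group had a replicate. Of the 57 members, 47 passed the filter in at least 1 comparison and 44 in all 3. The other 10 had between 0 and 21 reads in any library. A call was made for 13 members in at least 1 comparison, and 34 tested members were called in none.

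Os05t0410900-02, described as similar to peptide transporter PTR2, is the member that the study lists among its targets. It had 52 reads in NT (Nipponbare), 246 in the RCc3::OsNAC6-labelled library, 127 in the GOS2::OsNAC6-labelled one, 187 in NT (Hwayoung) and 77 in the nac6-labelled one. It was 4.64-fold higher in the RCc3::OsNAC6-labelled library, a log2 ratio of 2.21 ± 0.29. In the GOS2::OsNAC6-labelled library it was 2.85-fold higher, with 1.51 ± 0.31. It was 2.09-fold lower in the nac6-labelled library, with -1.07 ± 0.26. It was the only member called in all 3 comparisons. Another PTR2-like member, Os01t0871600-01, had the same directions on more reads, with 1.43 ± 0.05, 0.99 ± 0.06 and -1.68 ± 0.20 in the same order. It fell just short of 2-fold for GOS2::OsNAC6. The nac6 call of Os05t0410900-02 rested on an interval from -1.57 to -0.56 and was lost at -0.998 with a pseudocount of 5. A filter at 50 left Os05t0410900-02 out of the GOS2::OsNAC6 comparison. The study chose it on these libraries together with binding data, so its direction is not independent evidence.

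The controls themselves differed for this transcript. Scaled to library totals, its level was 7.93 RPM in NT (Hwayoung) and 1.94 RPM in NT (Nipponbare), a log2 ratio of 2.01 ± 0.30. The level in the nac6-labelled library, 3.36 RPM, thus lay above that of NT (Nipponbare) and below that of every other library. Its neighbour by locus number, Os05t0411100-00, also PTR2-like, had between 22 and 33 reads in every library and log2 ratios of 0.09 ± 0.48 (RCc3::OsNAC6) and 0.16 ± 0.49 (GOS2::OsNAC6) with NT (Nipponbare) as control, and 0.10 ± 0.56 for nac6.

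**Figure D1:**
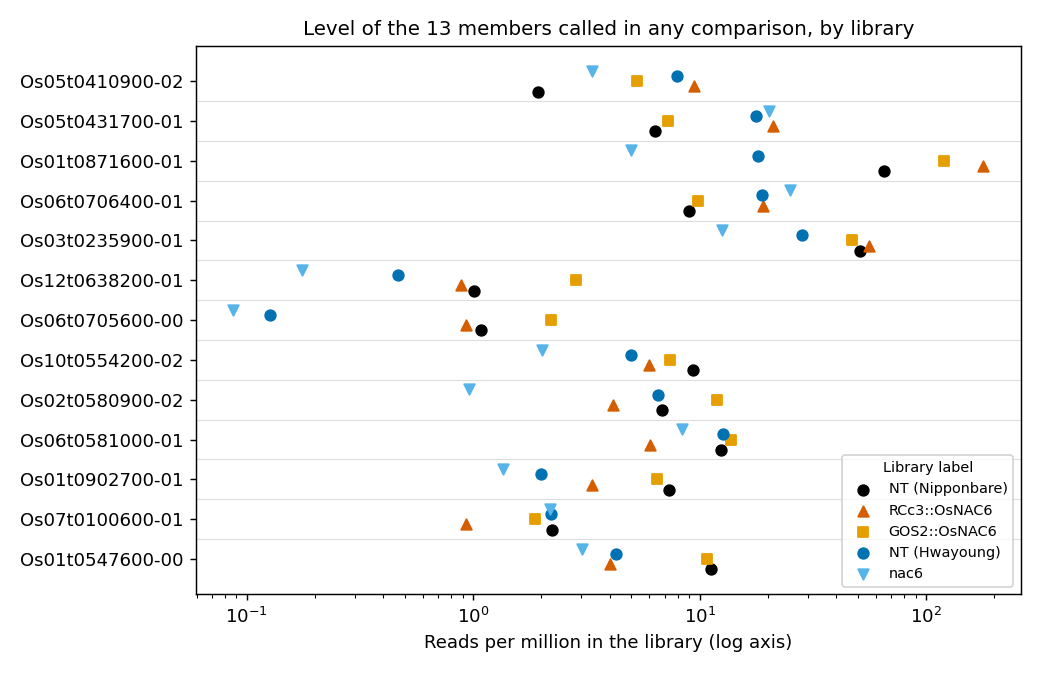
Level of the 13 members called in at least 1 of the 3 comparisons, in RPM on a log axis, with 1 symbol per library. Os05t0410900-02 was lowest in NT (Nipponbare), at 1.94, and highest in the RCc3::OsNAC6-labelled library, at 9.49. Os01t0871600-01 spanned 4.98 in the nac6-labelled library to 179 in the RCc3::OsNAC6-labelled one. Levels of different transcripts are not comparable, since they are not scaled to length.

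The comparison of RCc3::OsNAC6 with NT (Nipponbare) asked which members differ when the gene is under a root promoter, as labelled. Of 12 tested PTR2-like peptide transporters 4 rose and 1 fell, and a nitrate transporter pair and 1 other peptide transporter fell. Of 47 tested members, 4 were 2-fold or more higher, against 4.47% of all 32487 tested transcripts, and 4 were lower, against 6.03%. Each group of 4 is 8.51% of the members. The member median was 0.12 and that of all transcripts 0.01, and 29 members lay above 0 and 18 below.

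The other 3 members that rose there were also PTR2-like. Os01t0871600-01, similar to PTR2-B, went from 1743 reads in NT (Nipponbare) to 4630, a log2 ratio of 1.43 ± 0.05. Os05t0431700-01, also similar to PTR2-B, went from 171 to 546 reads, with 1.68 ± 0.17. Os06t0706400-01, whose text adds a histidine transporting protein, went from 240 to 493 reads, with 1.05 ± 0.15. The counting interval lay wholly beyond 2-fold for Os05t0410900-02, Os01t0871600-01 and Os05t0431700-01, and reached from 0.76 to 1.35 for Os06t0706400-01. Os05t0431700-01 and Os06t0706400-01 stayed near the control level in the GOS2::OsNAC6-labelled library, with 173 and 235 reads and log2 ratios of 0.28 ± 0.21 and 0.24 ± 0.18.

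The members that fell in the RCc3::OsNAC6-labelled library came from several groups. Os01t0547600-00, similar to the Arabidopsis NRT2.7 that stores nitrate in the vacuoles of seeds, went from 302 to 104 reads, with -1.51 ± 0.22. Os06t0581000-01, similar to the nitrate transporter NTL1, went from 332 to 157 reads, with -1.06 ± 0.19. Os01t0902700-01, PTR2-like, went from 196 to 87 reads, with -1.13 ± 0.25, and the peptide transporter Os07t0100600-01 from 60 to 24 reads, with -1.25 ± 0.46. All 4 stayed close to NT (Nipponbare) in the GOS2::OsNAC6-labelled library, where they had 259, 329, 155 and 45 reads and ratios between -0.15 and 0.25. The interval lay wholly beyond 2-fold only for Os01t0547600-00.

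Shoot marker transcripts moved in the same comparison. Of 17 tested, 7 were 2-fold or more lower in the RCc3::OsNAC6-labelled library, against 6.03% of all transcripts, and none higher, against 4.47%. Their median was -0.79. For GOS2::OsNAC6 1 of 17 was lower, against 2.00%, with a median of -0.02. For nac6 2 of 20 were higher, against 6.30%, and 1 lower, against 3.65%, with a median of 0.31. The counting interval excluded 0 for 1 of the 2 rises. The part of the shoot markers in the member differences was not tested.

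**Figure D2:**
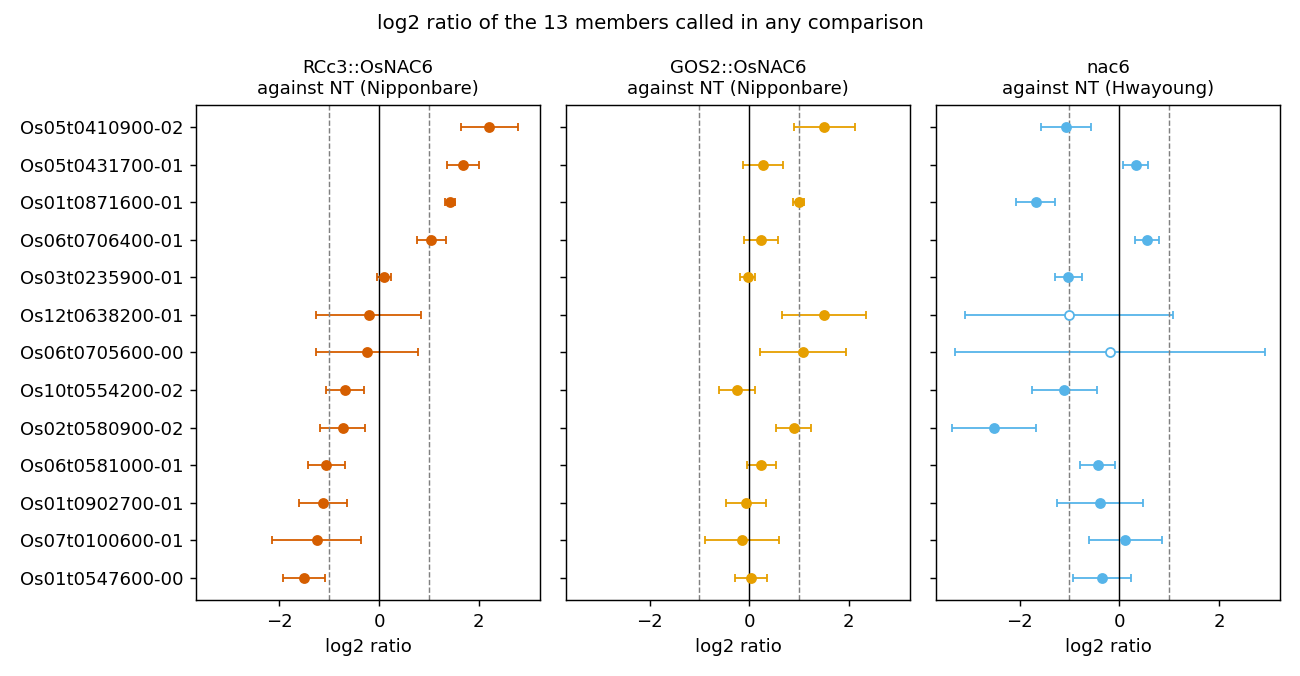
log2 ratio of the same 13 members in each comparison, with bars for 95% counting intervals, dashed lines at 2-fold and open symbols where the mean normalized count was under 10. Os05t0410900-02 lay at 2.21, 1.51 and -1.07, while Os02t0580900-02 lay at -0.73, 0.89 and -2.51.

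The comparison of GOS2::OsNAC6 with NT (Nipponbare) asked the same of the whole-plant promoter, and it uses the same control library. Fewer transcripts were called there. Of 47 members, 3 were higher, against 1.83% of 31987 transcripts, and none was lower, against 2.00%. Under library totals 2 of 48 members were higher and 0 lower, against 1.30% and 2.71% of all transcripts. The 3 members called higher within the table were Os05t0410900-02, Os12t0638200-01 and Os06t0705600-00. Os12t0638200-01, a peptide transporter, was 2.83-fold higher on 27 and 68 reads. Os06t0705600-00, with an oligopeptide transporter domain, had 29 and 53 reads and 1.08 ± 0.44. In the RCc3::OsNAC6-labelled library Os12t0638200-01 and Os06t0705600-00 had 23 and 24 reads, with -0.21 ± 0.54 and -0.25 ± 0.52. The interval included ratios under 2-fold for each of the 3.

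Several members with more reads lay just under the threshold. Os01t0871600-01 had 2886 reads, with 0.99 ± 0.06. Os02t0695900-01, similar to oligopeptide transporter 4, went from 241 to 398 reads, with 0.98 ± 0.16. Its neighbour Os02t0695800-01 lay further below the threshold, from 3335 to 4176 reads, with 0.59 ± 0.04. Os01t0142800-01 and Os01t0142800-03, isoforms of 1 peptide transporter locus, had 0.86 ± 0.08 and 0.94 ± 0.09. The counting interval lay above 0 for 13 of 47 members, against 21.1% of all transcripts, and below 0 for 1, against 18.8%. In the RCc3::OsNAC6 comparison it lay above 0 for 16, against 25.0%, and below 0 for 10, against 26.7%. These counts are of transcripts, not loci. The 10 included all 4 isoforms of Os03g0719900, and the 13 and the 16 each included both isoforms of Os01g0142800. For GOS2::OsNAC6 the member median was 0.11 and that of all transcripts -0.01. Scaling by library totals lowered these to 0.01 and -0.11.

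The comparison of nac6 with NT (Hwayoung) asked which members change when the gene is knocked out, as labelled. All calls were falls. Of 44 tested members, 5 were 2-fold or more lower, or 11.4%, against 3.65% of 30767 transcripts, and none was higher, against 6.30%. The counting interval lay below 0 for 13, against 23.1%, and above 0 for 4, against 25.6%. The member median was -0.21 beside -0.01 for all transcripts. Under library totals both medians were lower, at -0.37 and -0.16. With that scaling 5 of 44 members were lower and 0 higher, against 5.52% and 4.68% of all transcripts.

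The largest falls were in PTR2-like members. Os02t0580900-02 went from 154 reads in NT (Hwayoung) to 22 in the nac6-labelled library, 5.71-fold lower, with -2.51 ± 0.43. In Nipponbare it had 184 reads in NT, 108 in the RCc3::OsNAC6-labelled library and 285 in the GOS2::OsNAC6-labelled one, with ratios of -0.73 ± 0.23 and 0.89 ± 0.18. It therefore lay below the control in one overexpressor library and above it in the other. Os01t0871600-01 went from 426 reads in NT (Hwayoung) to 114 in the nac6-labelled library, 3.21-fold lower, with -1.68 ± 0.20. These were the members whose whole interval lay beyond 2-fold.

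Nitrate transporters made up the remaining calls besides Os05t0410900-02. Os03t0235900-01, similar to the low affinity transporter NRT1.2, went from 670 reads in NT (Hwayoung) to 288 in the nac6-labelled library, with -1.02 ± 0.13. In Nipponbare it had 1375, 1455 and 1122 reads in NT and in the RCc3::OsNAC6- and GOS2::OsNAC6-labelled libraries, with ratios of 0.10 ± 0.07 and -0.03 ± 0.08. Os10t0554200-02, described as a nitrate transporter, had 117 and 46 reads, with -1.10 ± 0.33, and ratios of -0.68 ± 0.20 and -0.24 ± 0.19 in the Nipponbare comparisons. It had fewer reads than its own control in every comparison.

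The other nitrate transporters were not called there. Os03t0687000-02 took the most reads of all members, between 20.03% and 23.9% of the member reads of a library. It had 5202 reads in NT (Nipponbare), 7566 and 6509 in the RCc3::OsNAC6- and GOS2::OsNAC6-labelled libraries, 4120 in NT (Hwayoung) and 3863 in the nac6-labelled one. Its ratios of 0.56 ± 0.03, 0.59 ± 0.04 and 0.10 ± 0.04 were under 2-fold with intervals above 0, and the last turned to -0.05 under library totals. Os10t0111300-01 and Os10t0370700-01 had 78 to 177 and 41 to 144 reads and ratios between -0.47 and 0.31. Os10t0110800-01 had at most 2 reads in any library. Over the 7 tested nitrate transporters the median was 0.10 under RCc3::OsNAC6, 0.25 under GOS2::OsNAC6 and -0.44 in nac6. None was called higher, beside 4.47%, 1.83% and 6.30% of all transcripts, shares that give less than 1 call among 7. In the same order 2, 0 and 2 were called lower, beside 6.03%, 2.00% and 3.65%.

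**Figure D3:**
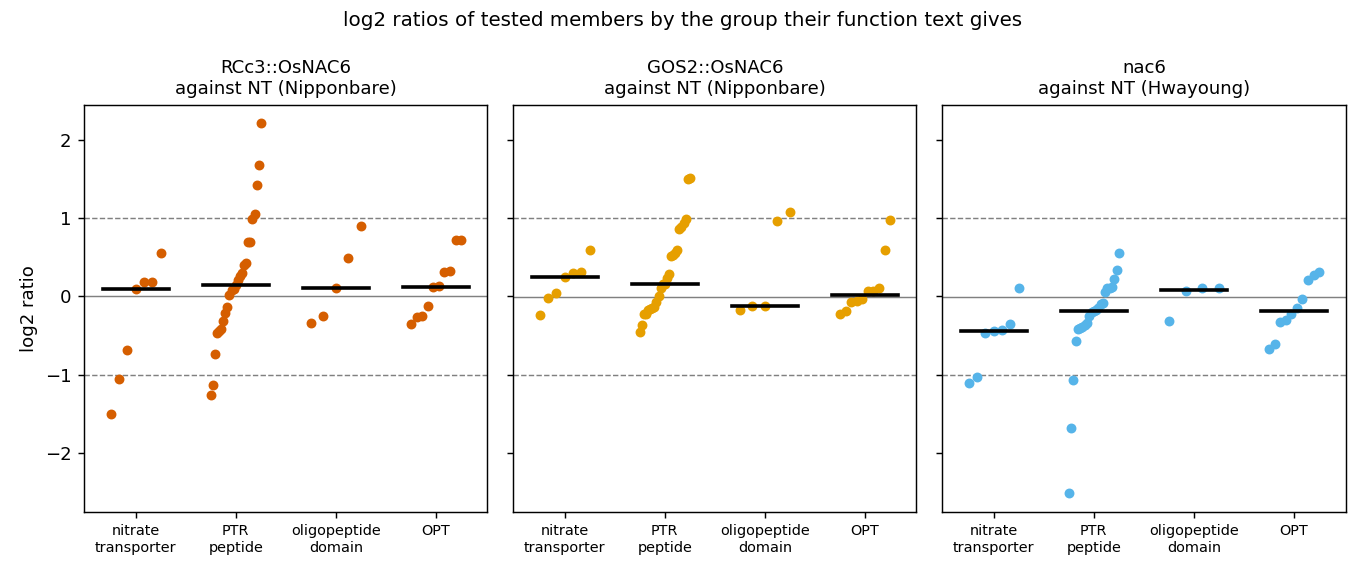
log2 ratio of every tested member by the group its function text gives, with a bar at the group median, dashed lines at 2-fold and a grey line at the median of all tested transcripts. PTR peptide transporters spanned -1.25 to 2.21 for RCc3::OsNAC6 and OPT transporters -0.35 to 0.72. In the nac6 panel 6 of 7 nitrate transporters lay below 0.

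In each of the 3 comparisons the PTR peptide transporters held the widest range of ratios. For RCc3::OsNAC6, 4 of 25 PTR peptide transporters were higher and 2 lower, with a median of 0.15. For GOS2::OsNAC6, 2 of 25 were higher, with a median of 0.16, and for nac6, 3 of 23 were lower, with a median of -0.19. Of all transcripts 4.47% and 6.03% were called higher and lower for RCc3::OsNAC6, 1.83% were higher for GOS2::OsNAC6 and 3.65% lower for nac6. No OPT transporter was called among 10 tested in each comparison, where such shares give less than 1 call per direction, and their medians were 0.13, 0.01 and -0.18. Of members with only an oligopeptide transporter domain, Os06t0705600-00 was the only one called. The peptide transporter Os11t0235200-01, whose text names panicle elongation, had between 430 and 644 reads and ratios of 0.01 ± 0.11, 0.01 ± 0.11 and 0.22 ± 0.13.

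Some members share a locus or lie next to each other by locus number. The 4 isoforms of Os03g0719900, a peptide transporter, summed to 3482 reads in NT (Nipponbare) and 2589 in the RCc3::OsNAC6-labelled library. The log2 ratio of the sums was -0.41, and the isoforms ranged from -0.47 to -0.31. Isoforms may share reads, so the sums may count a read more than once and no error is given for them. Os10t0470700-01, another peptide transporter with many reads, had 1211 reads in NT (Nipponbare), 1085 and 1122 in the overexpressor libraries, 1978 in NT (Hwayoung) and 1865 in the nac6-labelled library, with ratios between -0.14 and 0.16 against its controls. The OPT neighbours Os04t0524500-01 and Os04t0524600-01 had 0.32 ± 0.10 and -0.25 ± 0.13 for RCc3::OsNAC6. Neighbours of 1 family can share reads where their sequences are near identical, which was not examined here.

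The controls of both cultivars were set side by side because the overexpressor and nac6 comparisons start from different levels. Of 48 members tested on library totals, 7 were 2-fold or more higher in NT (Hwayoung), against 8.68% of 34307 transcripts, and 9 lower, against 17.5%. The member median was -0.23 and that of all transcripts -0.22. The counting interval lay above 0 for 9 members, against 19.8%, and below 0 for 22, against 40.7%. Os01t0871600-01 had 64.9 RPM in NT (Nipponbare) and 18.1 in NT (Hwayoung), with -1.84 ± 0.10. Its fall in the nac6-labelled library thus began from a level already below all 3 Nipponbare libraries.

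The PTR2-like members that rose in the RCc3::OsNAC6-labelled library did not share a direction between cultivars. Os05t0431700-01 and Os06t0706400-01 were higher in NT (Hwayoung), by 1.48 ± 0.17 and 1.08 ± 0.15, as Os05t0410900-02 was. Os01t0547600-00 and Os01t0902700-01, which fell in that library, were lower in NT (Hwayoung), with -1.38 ± 0.22 and -1.85 ± 0.31. Both sets of ratios use the same NT (Nipponbare) library. Among OPT transporters, Os04t0524600-01 had 1.04 ± 0.11, and the isoforms Os06t0125500-01 and Os06t0125500-02, similar to oligopeptide transporter 9, were higher there by 1.17 ± 0.20 and by 2.14-fold. Os06t0125400-00 and Os06t0127700-01, of the same description, had -1.03 ± 0.15 and -1.11 ± 0.26.

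**Figure D4:**
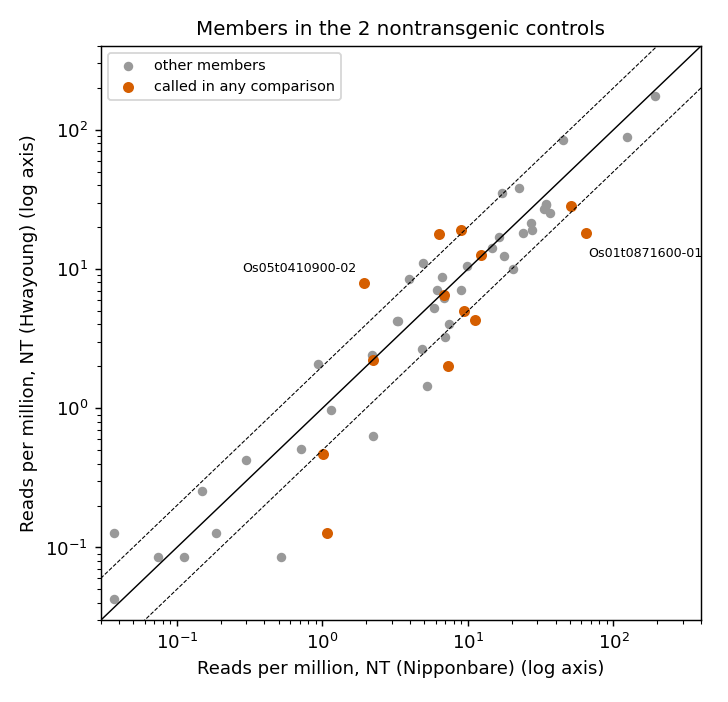
Level of the 56 members above 0 in both nontransgenic controls, in RPM on log axes. The solid line marks equal levels and the dashed lines a 2-fold difference. Os05t0410900-02 lay at 1.94 and 7.93 and Os01t0871600-01 at 64.9 and 18.1, on opposite sides of the lines.

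Summed over all members, the libraries labelled as overexpressors held more member reads than their control and the nac6-labelled library fewer. The sums were 968 RPM in NT (Nipponbare), 1265 in the RCc3::OsNAC6-labelled library, 1188 in the GOS2::OsNAC6-labelled one, 860 in NT (Hwayoung) and 707 in the nac6-labelled one. Members with many reads carry such a sum, and Os03t0687000-02, Os02t0695800-01 and Os01t0871600-01 had more reads in both overexpressor libraries than in their control. The sum over the 13 PTR2-like members was 129 RPM in NT (Nipponbare), 277 and 194 in the overexpressor libraries, 102 in NT (Hwayoung) and 79.3 in the nac6-labelled library. Os01t0871600-01 carried much of it, and without this member the sums were 64.2, 98.3, 73.7, 83.6 and 74.3 RPM in the same order, so that NT (Hwayoung) lay above NT (Nipponbare). The sums over all members without it were 903, 1086, 1067, 842 and 702 RPM.

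Other genes of nitrogen uptake and use were counted from lists of the same tables. For the high affinity nitrate uptake loci, none of 5 transcripts was called in the 3 comparisons, where 1.83% to 6.30% of all transcripts were called per direction. All 5 were 2-fold or more lower in NT (Hwayoung) than in NT (Nipponbare), against 17.5% of all transcripts, with a median of -2.46. Of 11 tested transcripts of nitrate assimilation (nitrate and nitrite reductases and their cofactor genes), 5 from 3 loci rose in the RCc3::OsNAC6-labelled library, against 4.47% of all transcripts, with a median of 0.84 for the list. The nitrate reductase Os02t0770800-01 went from 20 to 90 reads, with 2.11 ± 0.47, and the 3 isoforms of Os08g0468100 each had between 1.04 and 1.05. Between the controls, 4 of 12 tested transcripts of this list were higher in NT (Hwayoung), against 8.68%, and 1 lower, against 17.5%. There the isoforms of Os08g0468100 had 2.95, 2.65 and 2.40, more than their RCc3::OsNAC6 ratios. No transcript of this list was called among 9 tested for GOS2::OsNAC6 or 10 for nac6. Of all transcripts 1.83% were higher and 2.00% lower for GOS2::OsNAC6, and 6.30% and 3.65% for nac6. Ammonium transporters had medians of -0.59, 0.13 and -0.10, with 1 of 10 lower in nac6, Os01t0831300-01, on 63 and 22 reads, against 3.65% of all transcripts. Of 66 amino acid transporters, 3 (4.55%) were higher and 4 (6.06%) lower for RCc3::OsNAC6, near the 4.47% and 6.03% of all transcripts. For GOS2::OsNAC6 1 of 65 was lower, against 2.00%, and for nac6 6 of 62 (9.68%) were higher, against 6.30%.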

How the data were processed

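The study measured root RNA of rice on strand-specific libraries, and the build named in the submitters' processing notes is IRGSP-1.0. The aligner, the counting rule and the DESeq version were not given in the sources used here. The authors deposited 3 tables with a signal for each library, the mean read count normalized by DESeq size factors within that table. The fold changes and p-values of the authors in these tables were not used. Libraries are identified there only by the numbers in the comparison names, which were matched to the numbered sample descriptions. The value columns carry only the letters A and B, and A was taken as the first number. The comparisons that share NT (Nipponbare) gave the same reads in A. For nac6 against NT (Hwayoung) the order of the columns could not be checked in this way.

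Whole reads were recovered here from the digits of the values, as the sum of 2 count columns per library, for 100% of values above 0. NT (Nipponbare) gave the same reads for every transcript of both tables that hold it. The columns were taken as repeat counts of 1 library, and counting variances were multiplied by 1.76, the mean chi-square between them. RPM values use the recovered totals. Differences between libraries are counting differences, not genotype tests, and no p-value was computed with 1 library per group.

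Members and lists were chosen with earlier results of these data known, and the groups by function text after the values were seen. The text names the target locus and its neighbours within 1000 locus numbers, the 6 largest rises and falls called per comparison, members called in both overexpressors, members with at least 100 reads against 3 or fewer (none), the 8 with the most reads and all nitrate transporters. Other members named were chosen after their values were seen. The list of oligopeptide transporters outside the members was empty. None of the 50 loci was found in the RefSeq gene table, so no coordinates or sequences are given. Alternatives were a pseudocount of 5, no filter, a filter at 50, library totals, 1 transcript per locus and a 4-fold threshold. Scripts were tested on simulated data for the recovery of reads and of calls. The simulated count columns were drawn independently, without the excess spread seen between the real ones, and the intervals were not tested. Scripts were run in Python 3.11.15 with pandas 2.3.3, numpy 2.4.6 and matplotlib 3.10.9.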

Additional observations from a re-analysis of the deposited data

How the results depend on the processing

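Counts of called members were small, so single members moved them. At a 4-fold threshold 1 member was higher and 0 lower for RCc3::OsNAC6, against 0.77% and 1.30% of all transcripts. For GOS2::OsNAC6 0 were higher, against 0.19%, and for nac6 1 was lower, against 0.36%. With a filter at 50, 0 of 36 members were higher for GOS2::OsNAC6, against 1.04%, and 3 of 29 lower for nac6, against 2.10%. Without a filter, 6 of 57 were higher and 6 lower for RCc3::OsNAC6, against 7.06% and 7.72%. For GOS2::OsNAC6 4 were then higher and 1 lower, against 4.48% and 4.16%. For nac6 1 was higher and 7 lower, against 9.24% and 5.74%. With a pseudocount of 5, 3 were lower for nac6, against 2.67%, since Os05t0410900-02 and Os10t0554200-02 came to -0.998 and -0.997. Os06t0705600-00 came to 0.90 for GOS2::OsNAC6. Under library totals it came to 0.98 and the nac6 median to -0.37, and 5 members were higher for RCc3::OsNAC6, against 4.84%. Each member median kept its direction under the pseudocount, filter, scaling and locus alternatives. Of the ratios of named members, 61 of 64 kept their side of 2-fold with a pseudocount of 5 and 63 of 64 under library totals. No paired analysis was possible because each group had 1 library. Depth limits members with few reads: for Os05t0411100-00, with 22 to 33 reads, the interval for RCc3::OsNAC6 reached from -0.84 to 1.03. The sums without Os01t0871600-01 were added after seeing the data.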

Other observations

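Several matching transcripts stayed near the limit of detection in these roots. Os03t0103000-01, described as similar to a nitrate transporter, fitted the function text but was not in every table, with 3 reads in the library labelled GOS2::OsNAC6 and 0 in the 4 others, which allows up to 3 reads in each. The OPT transcripts Os01t0238700-01, Os02t0116400-01, Os08t0320200-01 and Os08t0320200-02 had between 0 and 14 reads per library. The PTR2-like Os04t0464400-00 had between 1 and 6.

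Os05t0338900-00 and Os05t0338933-00, neighbours by locus number and described by an oligopeptide transporter domain and as a proton-dependent oligopeptide family protein, lay just under 2-fold for RCc3::OsNAC6, with 0.90 ± 0.17 and 0.99 ± 0.30. For GOS2::OsNAC6 they had 0.96 ± 0.17 and 0.53 ± 0.33. Their ratios between the controls were -0.87 ± 0.24 and -1.75 ± 0.55.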
